A study of Mus musculus with 4 samples.

Results

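RANKL, its receptor RANK, its decoy receptor osteoprotegerin (OPG) and the macrophage growth factor CSF1 were followed in RNA-seq libraries of hip and knee articular cartilage from mice with floxed Cbfb. The 4 genes are Tnfsf11 (RANKL), Tnfrsf11a (RANK), Tnfrsf11b (OPG) and Csf1. They were taken by name from 50686 gene identifiers counted in the hip and 54838 counted in the knee. All 4 were present in every library and had at least 10 counts over each pair of libraries.

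There were 4 poly-A libraries with 1 library per condition. The hip control came from male Cbfβf/f mice labelled as without treatment, which carry the floxed gene and no Cre. Its partner came from male Cbfβf/f;Col2α1-CreERT mice injected with tamoxifen (TMX) from 2 weeks of age, at 75 mg per kg per day for 5 days. The sources give the age of the hip mice as 6 weeks or as 2 months. In the knee, both libraries came from 12-week-old male Cbfβf/f;Aggrecan-CreERT mice, with oil in the control and TMX, at the same dose, in its partner. The start of TMX in the knee is given as 6 weeks or as 8 weeks of age. The Col2α1 promoter drives its TMX-dependent Cre in chondrocytes and their progenitors, and the Aggrecan promoter in chondrocytes. By the labels all 4 libraries share the floxed allele, while the paper's text calls the hip control wild type. The 2 joints also differ from each other in the Cre driver, the age of the mice and what served as control. By the paper's account the hip tissue was cartilage alone, and the knee tissue also held bone. The general methods give 5 mice per group, and how many went into a library is not given in the sources used here.

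The libraries of TMX-injected mice are called the hip TMX and knee TMX libraries here. Counts on genes ranged from 34264456 to 38473120 per library, so 1 count was worth 0.0260 to 0.0292 CPM (counts per 1e+06 gene counts). Cbfb, the targeted gene, stood at 66.2 CPM in the hip control and 85.2 CPM in the hip TMX library, and at 110.8 and 119.6 CPM in the knee. Its log2 ratio after TMM scaling was 0.41 (0.33 to 0.48) in the hip, higher in the TMX library, and -0.07 (-0.13 to -0.01) in the knee. The direction in the knee turned with the scaling, since CPM was higher and the TMM ratio lower in the TMX library. Gene counts do not show whether an exon was lost. The chondrocyte marker Col2a1 had 354 and 228 counts in the hip control and hip TMX libraries against 87367 and 33204 in the knee. Skeletal muscle markers (16 genes) held 18.3% and 19.2% of all hip counts and 1.40% and 2.99% of knee counts. Col2a1, the main collagen of cartilage, was thus scarce in the hip libraries for their label. Of 14 listed chondrocyte genes, Comp (122.6 CPM) and Chad (66.7 CPM) were the most counted in the hip control. In the hip TMX library they stood at 37.2 and 18.5 CPM. Col11a2 (25.4 CPM) and Acan (11.5 CPM) came next in the hip control, while Col9a1 (2.16 CPM), Hapln1 (0.988 CPM) and Matn1 (0.0780 CPM) were scarce there.

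RANKL is a TNF-family ligand that osteocytes, osteoblasts, chondrocytes and activated lymphocytes display on their surface. It binds RANK on cells of the monocyte lineage and, through TRAF6, NF-κB, c-Fos and NFATc1, drives them to become bone-resorbing osteoclasts. OPG is a secreted receptor that captures RANKL before it reaches RANK, so the balance of RANKL to OPG is commonly read as a measure of the drive to resorption. CSF1 acts beside RANKL: through the receptor CSF1R it keeps osteoclast precursors alive and lets them express RANK. Cbfβ is the partner of the RUNX transcription factors, which bind the core letters TGTGGT or TGCGGT.

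The genes lie apart in the genome (GENCODE M39, GRCm39). Tnfsf11 (ENSMUSG00000022015) is on the minus strand at chr14:78514885-78545490 and has 1 annotated transcript with 2243 bases of exon. Tnfrsf11b (ENSMUSG00000063727) is on the minus strand at chr15:54114015-54142075, with 3013 bases of exon. Tnfrsf11a (ENSMUSG00000026321) is on the plus strand at chr1:105708358-105777170, with 7559 bases of exon. Csf1 (ENSMUSG00000014599) is on the minus strand at chr3:107648364-107667806, with 5877 bases of exon, of which 159 bases are shared with an antisense noncoding gene, Gm40121. Whether the counting used strand is not given in the sources used here. No other gene shared exon bases with a member.

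RefSeq promoter windows (GRCm38.p6, 250 bases before to 50 bases after the start) were matched for Tnfsf11, Tnfrsf11a and Csf1, and none for Tnfrsf11b. Neither TGTGGT nor TGCGGT occurred on either strand of these windows, and 22.4% of 32851 promoter windows of the same length held at least 1 of them. The motifs differ in 1 letter, so they cannot match at the same place. This says only that those letters are not in the window. The 250 bases before the Tnfsf11 start (chr14:78308044-78308293, minus strand) are shown as the searched sequence of the ligand, in lower case throughout because no letter belonged to a match.

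Tnfsf11: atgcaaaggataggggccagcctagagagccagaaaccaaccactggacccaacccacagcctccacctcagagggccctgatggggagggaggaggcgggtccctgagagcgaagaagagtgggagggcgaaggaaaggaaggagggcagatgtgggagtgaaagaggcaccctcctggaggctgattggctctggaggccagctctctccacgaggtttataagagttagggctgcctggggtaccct

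In the knee, the decoy receptor OPG and the ligand RANKL showed the largest differences of the 4 transcripts, in opposite directions. After TMM scaling the sizes were alike, with log2 ratios of 1.00 (0.87 to 1.14) and -0.93 (-1.25 to -0.61). OPG stood at 41.1 CPM in the knee TMX library and 18.1 CPM in its control, while RANKL stood at 3.61 CPM against 6.07 CPM. The number of RANKL counts per OPG count was 3.83 times lower in the knee TMX library. RANK was higher and CSF1 slightly lower in the TMX library of both joints, but without the trend over exon length and GC content only the knee difference in CSF1 lay beyond counting error. In the hip, RANKL was so scarce that counting error spanned its difference. With 1 library per condition there is no replicate within a joint, and no test was made. Every interval given is a 95% exact interval for counting error only.

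A log2 ratio compares the TMX library with its control after TMM scaling within the pair, with 0.5 added to each count, and is said to lie beyond counting error where its interval excludes 0. In the hip pair 37.3% of 19856 genes were higher and 33.7% were lower beyond counting error, and of the members 2 were higher, 1 lower and 1 within it. For the knee, 31.9% of 21131 genes were higher and 29.7% lower, and of the members 2 were higher and 2 lower. With a limit of 2-fold as well, 20.2% of hip genes were higher and 16.3% lower, and 1 member, Tnfrsf11a, was among the higher. In the knee 9.00% were higher and 6.81% lower by that rule, with 1 member, Tnfrsf11b, among the higher. Under library size scaling the share of knee genes past 2-fold that were higher was 71.3% in place of 56.9%, and the median log2 ratio of all knee genes was 0.20 in place of 0.02. In the hip that share was 55.4%, and 47.3% without the trend over exon length and GC content.

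**Figure D1:**
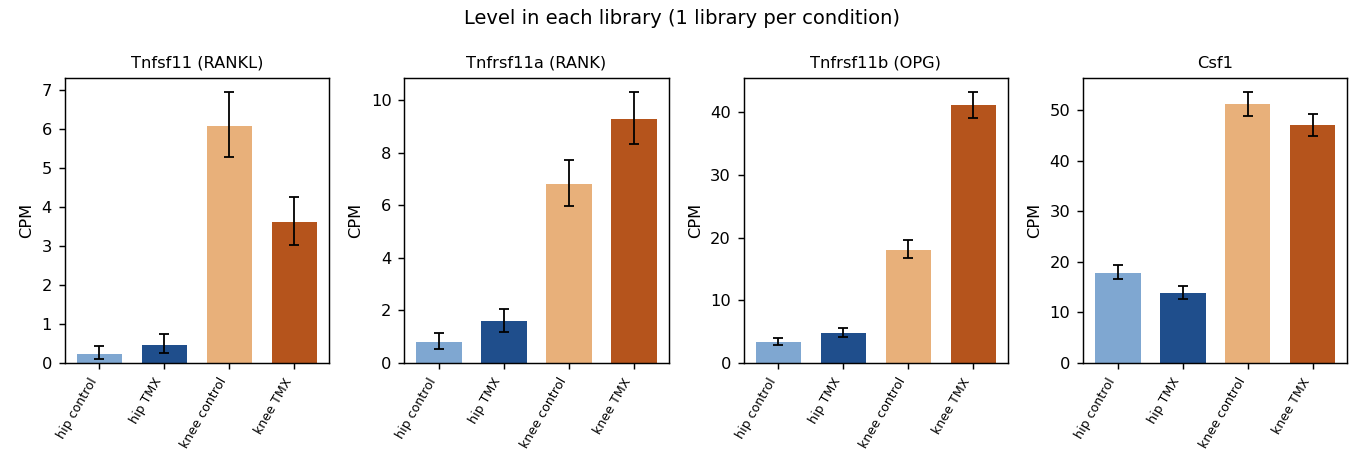
Level of each gene in CPM (vertical axes, from 0, scaled per gene) in the 4 libraries, with 95% exact Poisson intervals for counting error as whiskers and 1 library per bar. Tnfrsf11b reached 41.1 CPM in the knee TMX library, and Tnfsf11 stayed under 0.5 CPM in both hip libraries.

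The ligand RANKL was the least counted of the 4. Tnfsf11 had 9 counts in the hip control (0.234 CPM, interval 0.107 to 0.444) and 16 counts in the hip TMX library (0.463 CPM, interval 0.264 to 0.751). It had 208 counts in the knee control (6.07 CPM, interval 5.27 to 6.95) and 138 in the knee TMX library (3.61 CPM, interval 3.03 to 4.26). The hip intervals overlapped, and the knee intervals did not.

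In the hip pair the log2 ratio of Tnfsf11 was 0.99 (-0.24 to 2.39), which counting error alone spans. In the knee pair it was -0.93 (-1.25 to -0.61), a level 0.525 times that of the control, and 9.35% of knee genes had a lower ratio. Over the settings tried the knee ratio ran from -0.93 to -0.65, always lower and short of 2-fold.

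CSF1, which sustains macrophages and osteoclast precursors, was the most counted. Csf1 had 689 counts in the hip control (17.9 CPM, interval 16.6 to 19.3) and 480 in the hip TMX library (13.9 CPM, interval 12.7 to 15.2). In the knee it had 1753 counts in the control (51.2 CPM, interval 48.8 to 53.6) and 1797 in the TMX library (47.0 CPM, interval 44.9 to 49.2). Both TMX libraries were lower, and the knee intervals in CPM overlapped narrowly.

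The log2 ratio of Csf1 was -0.32 (-0.49 to -0.15) in the hip and -0.30 (-0.40 to -0.21) in the knee. Once the trend of all genes over exon length and GC content was taken out, the hip ratio was -0.023 (-0.19 to 0.15). In the knee it was -0.43 without that trend and -0.12 under library size scaling, so its size there rests on the scaling.

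The receptor RANK marks osteoclast precursors and is also found on dendritic and some epithelial cells. Tnfrsf11a had 31 counts in the hip control (0.806 CPM, interval 0.547 to 1.14) and 55 in the hip TMX library (1.59 CPM, interval 1.198 to 2.07). It had 233 counts in the knee control (6.80 CPM, interval 5.95 to 7.73) and 355 in the knee TMX library (9.29 CPM, interval 8.35 to 10.3). In neither joint did the intervals of the 2 libraries overlap.

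The log2 ratio of Tnfrsf11a was 1.01 (0.36 to 1.71) in the hip and 0.27 (0.03 to 0.51) in the knee. The knee ratio was 0.45 (0.21 to 0.69) under library size scaling. Without the length and GC trend they were 0.61 (-0.04 to 1.30) and 0.18 (-0.06 to 0.42), so neither lay beyond counting error. The hip ratio was also under the 2-fold limit with library size scaling (0.97) and DESeq2 size factors (0.95).

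OPG, the decoy receptor, is made by osteoblasts, osteocytes, chondrocytes and stromal and vessel wall cells. Tnfrsf11b had 130 counts in the hip control (3.38 CPM, interval 2.82 to 4.01) and 166 in the hip TMX library (4.80 CPM, interval 4.10 to 5.59). In the knee control it had 619 counts (18.1 CPM, interval 16.7 to 19.5) and in the knee TMX library 1571 (41.1 CPM, interval 39.1 to 43.2). It was higher in the TMX library of both joints, and neither pair of intervals overlapped.

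The log2 ratio of Tnfrsf11b was 0.55 (0.21 to 0.89) in the hip and 1.00 (0.87 to 1.14) in the knee, and 89.0% of knee genes had a lower ratio. It kept its direction and stayed beyond counting error in every setting tried, between 0.38 and 0.55 in the hip and between 1.00 and 1.19 in the knee.

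**Figure D2:**
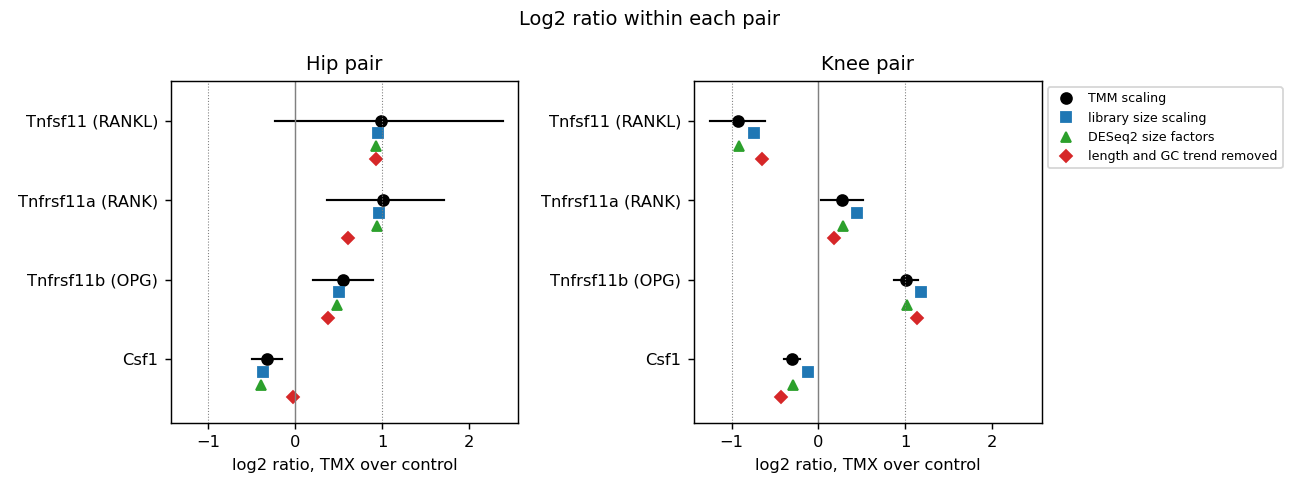
Log2 ratio of the TMX library over its control (horizontal axes) in the hip and knee pairs, with black circles and lines for TMM scaling and its 95% counting intervals, other symbols for 3 alternative settings and dotted lines at 2-fold. Tnfrsf11b was higher in both joints under each setting drawn (0.55 and 1.00 with TMM), and Csf1 in the hip came to -0.023 once the length and GC trend was taken out.

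The ratio of RANKL to OPG counts needs no scaling between libraries. There were 0.0692 Tnfsf11 counts per Tnfrsf11b count in the hip control (interval 0.0310 to 0.136) and 0.0964 in the hip TMX library (0.0538 to 0.161). In the knee the ratio was 0.336 in the control (0.286 to 0.394) and 0.0878 in the TMX library (0.0733 to 0.105). Put the other way, OPG outnumbered RANKL by 14.4, 10.4, 2.98 and 11.4 counts to 1 in the same order. Per kilobase of exon it was 10.8, 7.72, 2.22 and 8.47 to 1. The knee control stood above the other 3 libraries, whose intervals overlapped each other.

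Within the knee pair the log2 change of this ratio was -1.94 (-2.28 to -1.59), a ratio 3.83 times lower in the TMX library (interval 3.01 to 4.87). Within the hip pair it was 0.48 (-0.84 to 1.88), an interval that holds changes in either direction. Both genes contributed in the knee, with Tnfsf11 at 0.525 times and Tnfrsf11b at 2.005 times the control level. Removing the length and GC trend left the knee change at -1.79 and the hip change at 0.55. Transcript counts do not give the amounts of the 2 proteins, and RANKL is counted whether it is bound to membrane or shed.

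**Figure D3:**
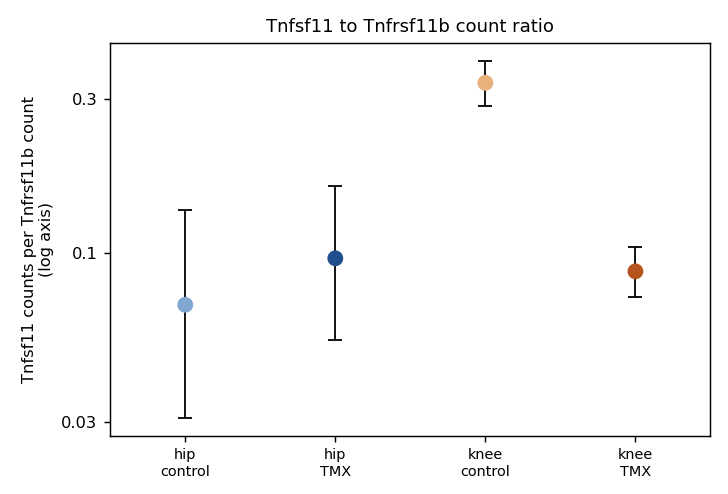
Tnfsf11 counts per Tnfrsf11b count (vertical log axis) in each of the 4 libraries, with 95% exact binomial intervals for counting error as whiskers. The knee control lies at 0.336, and the other 3 libraries lie between 0.0692 and 0.0964.

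RANKL was also set against its signalling receptor. There were 0.290 and 0.291 Tnfsf11 counts per Tnfrsf11a count in the hip control and hip TMX libraries. In the knee the ratio was 0.893 in the control and 0.389 in the TMX library, a log2 change of -1.20 (-1.60 to -0.79). For the other ligand, the hip control and hip TMX libraries held 0.513 and 0.904 Csf1 counts per Csf1r count, and those of the knee held 0.445 and 0.310. Per kilobase of exon the Csf1 to Csf1r ratio was 0.643, 1.13, 0.558 and 0.389 in the same order. This ratio was thus higher in the hip TMX library (log2 change 0.82, 0.59 to 1.04) and lower in the knee TMX library (-0.52, -0.63 to -0.41).

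Levels of different genes can be compared only per length of exon. In CPM per kilobase, Csf1 led in the hip control (3.05), the hip TMX library (2.36) and the knee control (8.71), with Tnfrsf11b in second place at 1.12, 1.59 and 6.00. In the knee TMX library the order of these 2 genes was turned, with Tnfrsf11b at 13.6 and Csf1 at 7.999. Tnfsf11 and Tnfrsf11a could not be ordered in the hip, where they stood at 0.104 and 0.107 in the control and at 0.206 and 0.210 in the TMX library. In the knee control Tnfsf11 (2.71) stood above Tnfrsf11a (0.900), and in the knee TMX library they stood at 1.61 and 1.23, with intervals that just overlapped. Counting intervals of all other neighbours in these orders did not overlap.

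Every member had a higher level in the knee than in the hip. Between the controls the ratio of knee to hip CPM was 25.9 for Tnfsf11 (interval 13.4 to 57.5), 8.44 for Tnfrsf11a, 5.35 for Tnfrsf11b and 2.86 for Csf1, beside a median of 1.73 over 21087 genes. Between the TMX libraries it was 7.80, 5.84, 8.56 and 3.39 in the same order, beside a median of 1.83. The knee tissue is described as holding bone beside cartilage and the hip tissue as cartilage alone, and tissue, age and Cre line, and any difference in counting, cannot be told apart from joint. Muscle markers took over 18% of hip counts, and leaving muscle, erythroid and mitochondrial genes out of the totals raised the hip levels more than those of the knee. Tnfsf11 in the controls was then 0.313 CPM in the hip and 6.99 CPM in the knee.

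The receptor of CSF1 and its second ligand IL-34 were lower in the hip TMX library, as CSF1 was, and neither was lower in that of the knee. Csf1r had 1342 counts in the hip control and 531 in the hip TMX library, a log2 ratio of -1.14 (-1.29 to -0.99), and 3937 and 5791 counts in the knee, a log2 ratio of 0.22 (0.16 to 0.28). Il34 had 245 and 144 counts in the hip, with a log2 ratio of -0.57 (-0.88 to -0.27), and 396 and 526 in the knee, with a log2 ratio of 0.07 that lay within counting error. In the hip Tnfrsf11a was higher in the library where Csf1r, carried by the same cell lineage, was lower. Without the length and GC trend, the hip ratios of Tnfrsf11a (0.61) and Csf1 (-0.023) lay within counting error. Values without that trend are not given here for Csf1r and Il34.

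The pathway around these genes was read from lists of 66 genes in all, each with at least 10 counts in both pairs. In bulk tissue the values of these genes cannot be assigned to the cells that carry RANK or CSF1R. Beyond counting error, 29 of them were higher and 27 lower in the hip, with a median of 0.06 (log2 ratio) beside 0.01 over all genes. In the knee it was 33 higher and 24 lower, with a median of 0.12 beside 0.02. Among all genes of the hip pair, this rule called 37.3% higher and 33.7% lower. Among those of the knee pair it called 31.9% higher and 29.7% lower. Whether the split of any gene list below departs from these shares was not tested. After TMM scaling no pathway gene was higher by 2-fold in the knee, and 3 were lower by 2-fold. In CPM without TMM, Bcl6 (32.9 and 69.1) and Ptger2 (2.71 and 5.78) passed 2-fold, and of the 3 lower genes only Oscar did. Under library size scaling 43 of the knee genes were higher and 14 lower, and without the length and GC trend 25 were higher and 29 lower, which turned the balance. In the hip, 29 were higher and 17 lower without that trend.

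Downstream of RANK, the hip had 9 of 18 signalling genes higher and 7 lower (median 0.13), and the knee had 8 higher and 6 lower (median 0.08). Traf6, the adaptor that RANK requires, had a log2 ratio of 0.62 (0.42 to 0.81) in the hip and of -0.06, within counting error, in the knee. The largest hip differences were in Chuk, which encodes the kinase IKKα (1.88), Cyld, a deubiquitinase that restrains TRAF6 (1.81), and Nfkbia, the NF-κB inhibitor IκBα (1.15). In the knee they were in Mapk14, the p38α kinase (0.79), Gab2, a RANK adaptor (0.75), and Nfkb2, of the noncanonical NF-κB pathway (-0.64).

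Among 7 activating transcription factors of osteoclasts, 4 were higher and 2 lower in the hip and 3 were higher and 3 lower in the knee. Nfatc1, the master regulator, had a log2 ratio of 0.17 (0.08 to 0.27) in the hip and 0.22 (0.13 to 0.30) in the knee. Fos was higher in both joints, by 1.66 and 0.79, as was Mitf, by 1.11 and 0.48. Prdm1, which encodes Blimp1, was lower in the hip (62 and 26 counts, -1.04), and Spi1, which encodes PU.1, was lower in the knee (-0.27). The repressor Bcl6 was lower in the hip by a log2 ratio of -1.18 and higher in the knee by 0.89. All 3 repressors were lower in the hip, while in the knee 2 were higher and 1 lower.

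For immunoreceptor costimulation, which supplies the calcium signal beside RANK, the hip median was -0.51 and the knee median 0.17 (log2 ratios). Of its 9 genes, 1 was higher and 5 lower in the hip, and 5 were higher and 4 lower in the knee. Oscar, an osteoclast-associated receptor, had 419 counts in the knee control and 202 in the knee TMX library, a log2 ratio of -1.39 (-1.64 to -1.15). In the hip it had 10 and 6 counts, a difference within counting error. The phospholipase gene Plcg2 was lower in the hip (-0.82) and higher in the knee (0.71).

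The 11 genes of CSF1R signalling included 4 higher and 6 lower in the hip (median -0.17) and 5 higher and 3 lower in the knee (median 0.11). Pik3r1, the regulatory subunit of PI3-kinase, had 681 and 7247 counts in the hip control and hip TMX libraries, a log2 ratio of 3.61. In the knee its log2 ratio was 0.16. Its size in the hip stood apart from the other genes of the list, of which the next were Sos1 (1.505) and Cbl (1.25).

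Receptors for hormones and cytokines that induce RANKL were split in both joints, with 7 of 13 higher and 3 lower in the hip and 7 higher and 6 lower in the knee. Pth1r, the receptor for parathyroid hormone and PTHrP, was lower in both, by log2 ratios of -1.55 (-1.75 to -1.36) and -1.01 (-1.07 to -0.96). Il6ra (1.998) and Osmr (1.51), receptors of the IL-6 family, were higher in the hip, while in the knee Osmr was lower (-0.46). Il6st, the shared chain of that family, was higher in both joints, by 0.80 and 0.72. The prostaglandin E receptor Ptger2 was higher in the knee (0.90).

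Of 7 genes for shedding of RANKL and for other partners of RANKL and OPG, 4 were higher and 3 lower in the hip and 4 were higher and 2 lower in the knee. Mmp14, which can cut RANKL from the membrane, was lower in both joints, by log2 ratios of -0.43 and -1.12, and the sheddase Adam10 was higher in both, by 1.32 and 0.16. Tnfsf10 (TRAIL), a death ligand that OPG also binds, was higher in both, by 1.47 (1.14 to 1.82) and 0.76 (0.49 to 1.03). Lgr4, a second receptor for RANKL, had a log2 ratio of 1.09 (0.94 to 1.24) in the hip and 0.15 in the knee, the latter within counting error. Vwf, a vessel wall protein that binds OPG, was higher in the knee (0.79) and lower in the hip (-0.40).

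**Figure D4:**
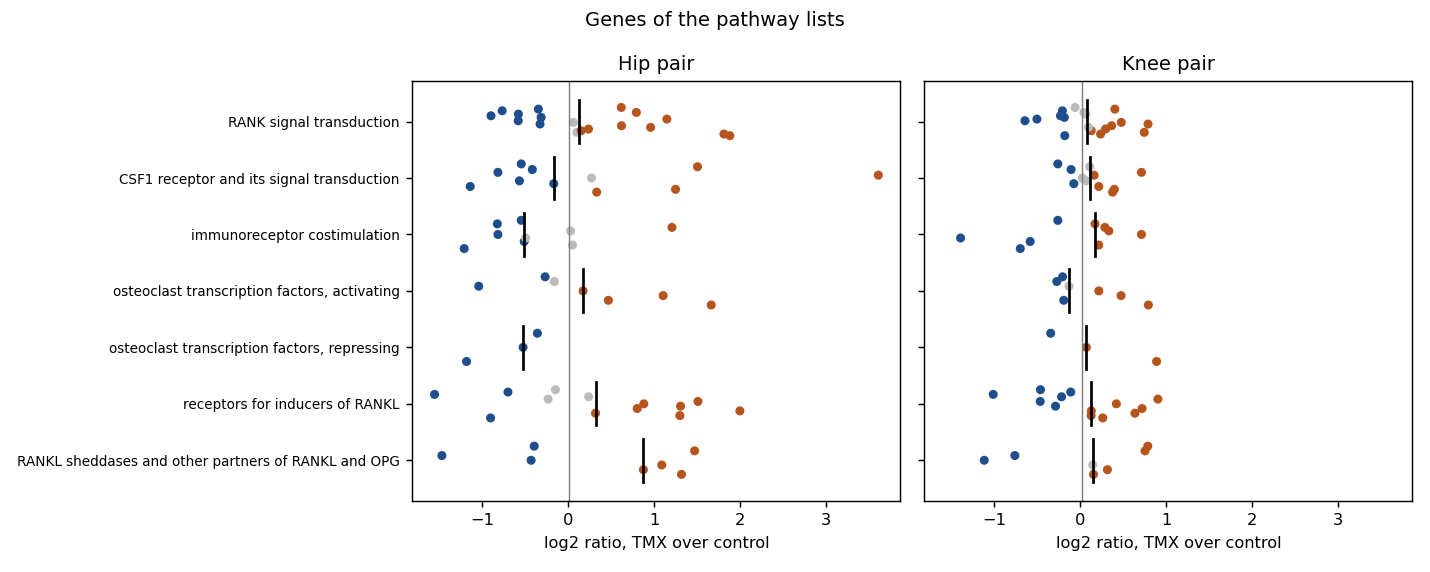
Log2 ratio of the TMX library over its control for each gene of 7 pathway lists, in the hip and knee pairs, with blue and orange points for genes lower and higher beyond counting error, grey points for those within it, black bars for list medians and a grey line for the median of all genes. The largest point is Pik3r1 in the hip at 3.61, and after TMM scaling, as drawn, the knee genes lie between -1.39 and 0.90.

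Markers of the cells that make and receive these signals moved as well, and in bulk tissue fewer cells of a type and less RNA per cell cannot be told apart. In the knee the summed level of 14 chondrocyte genes went from 0.623% of counts in the control to 0.308% in the TMX library, with 11 lower and 3 higher, the latter being Acan, Comp and Chad. Hypertrophic chondrocyte genes went from 0.142% to 0.0565% (5 of 5 lower), and osteoblast genes from 1.40% to 0.782% (7 of 10 lower, 1 higher). Osteocyte genes went from 0.0317% to 0.0285% (5 of 8 higher, 3 lower). Dmp1, a bone matrix protein, held 6883 of 10873 list counts in the control and 3960 of 10880 in the TMX library. In the same list Sost, which encodes sclerostin, was higher (423 and 1640 counts), and Fgf23, a phosphate hormone, had 0 counts in the control and 35 in the TMX library. Per 1000 counts of the osteoblast list there were 0.432 Tnfsf11 counts in the knee control and 0.462 in the knee TMX library, against 1.29 and 5.26 Tnfrsf11b counts, where Col1a1 alone held 315688 of the 481305 list counts in the control. Per 1000 counts of the osteocyte list, Tnfsf11 made 19.1 and 12.7. Per 1000 counts of the chondrocyte list it made 0.975 and 1.17 in the knee, per 1000 of the hypertrophic list 4.26 and 6.39, and per 1000 of the T cell list 183.1 and 121.2. In the hip, Tnfsf11 made 0.248 and 1.74 per 1000 osteoblast list counts, from 9 and 16 counts. The part of these cells in either result was not tested.

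Other markers were higher beside Tnfrsf11b in the knee TMX library. Synovial lining and superficial zone genes went from 0.0454% to 0.131% of counts with 6 of 6 higher, led by Prg4, which encodes lubricin (10157 and 36604 counts). Adipocyte genes (10 of 10 higher) went from 0.0440% to 0.0979%, muscle genes (16 of 16 higher) from 1.40% to 2.99% and endothelial genes (5 of 7 higher, 2 lower) from 0.0274% to 0.0421%. Marrow stromal genes stood at 0.104% and 0.102% (4 of 7 higher, 1 lower), of which the lower gene, Cxcl12, held 30909 of 35519 control counts. Whether any of these cells carried the added Tnfrsf11b was not tested.

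On the receiving side, osteoclast genes took 0.400% of counts in the knee control and 0.263% in the knee TMX library, with 8 of 12 lower and 2 higher. Acp5, the TRAP enzyme, went from 32394 to 14273 counts (log2 ratio -1.52, -1.55 to -1.49), and Ctsk, the collagen-cutting cathepsin K, from 48315 to 22701 (-1.43, -1.45 to -1.41). Mmp9, a gelatinase that neutrophils also make, had 34001 and 34345 counts (-0.32, -0.35 to -0.30). The 233 and 355 Tnfrsf11a counts thus made 1.70 and 3.54 per 1000 osteoclast list counts. Monocyte and macrophage genes were 0.330% and 0.371% of knee counts, with 4 of 11 higher and 5 lower, and Tnfrsf11a made 2.06 and 2.50 per 1000 of their counts.

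In the hip, osteoclast genes took 0.0129% and 0.0127% of counts (5 of 11 measured genes higher, 3 lower). There too Acp5 (501 and 294 counts, log2 ratio -0.57) and Ctsk (1101 and 615 counts, -0.64) were lower. The fusion genes Dcstamp and Ocstamp had 18 and 5 counts in the control and 3 and 4 in the TMX library. Atp6v0d2, a proton pump subunit also needed for fusion, went the other way, with 18 and 100 counts (log2 ratio 2.64, 1.94 to 3.48). Monocyte and macrophage genes went from 0.0265% to 0.0174% (8 of 11 lower, 2 higher), and osteoblast genes from 0.0944% to 0.0266% (7 of 10 lower, 1 higher). Chondrocyte genes went from 0.0257% to 0.0105% (8 of 13 measured genes lower, 3 higher). Hypertrophic chondrocyte genes took 0.00390% and 0.00216% of hip counts, and osteocyte genes 0.00277% and 0.00241%. Synovial lining genes went from 0.0356% to 0.0533% (5 of 6 higher, 1 lower). Adipocyte genes took 0.0732% and 0.147% (5 of 10 higher, 3 lower), with Plin4, a lipid droplet protein, at 6694 and 30321 of 28161 and 50794 counts. Marrow stromal genes took 0.0149% and 0.0155% (4 of 7 higher, 2 lower) and endothelial genes 0.0269% and 0.0247% (2 of 7 higher, 3 lower).

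Among blood cells, T cell genes, from cells that can display RANKL, held 0.00332% of counts in the knee control and 0.00298% in the knee TMX library. B cell genes stood at 0.0329% and 0.0189%, neutrophil genes at 3.41% and 2.76%, and erythroid genes at 9.99% and 4.94% in the same order. The hip control and hip TMX shares were 0.000525% and 0.000321% for T cells, 0.00129% and 0.000301% for B cells, 0.0452% and 0.0531% for neutrophils and 0.589% and 0.222% for erythroid cells. Of the erythroid genes, 9 of 9 were lower in the hip, and in the knee 7 were lower and 2 higher. The paper lists Alas2, Hba-a2 and Hbb-b1 among its most upregulated hip genes. Here Alas2 (log2 ratio -0.53) and Hba-a2 (-0.38) were lower in the hip TMX library, and the reason was not tested. Of 5 B cell genes, 5 were lower in the hip and 4 in the knee. T cell genes were lower for 3 of 7 in the knee with none higher, and neutrophil genes for 7 of 10 with 3 higher. The part of these cells in the values of the 4 genes was not tested.

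**Figure D5:**
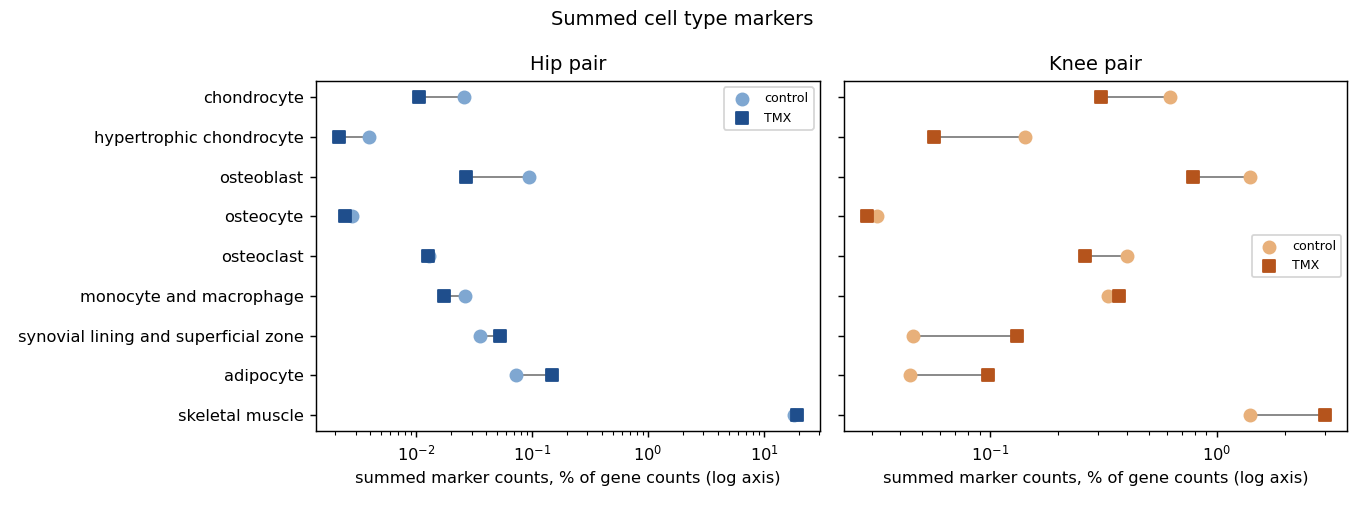
Summed counts of 9 cell type marker lists as a percent of gene counts (horizontal log axes, with a different range in each panel), in the control (circles) and TMX (squares) libraries of the hip and knee pairs. In the knee, chondrocyte and osteoblast lists were lower in the TMX library (0.308% and 0.782%) and the synovial lining list was higher (0.131%).

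The genes whose pattern over the 4 libraries was most like each member were found by the root mean square difference of centred log2(CPM + 0.1) values among 17352 other genes. For Tnfsf11 the nearest were Tipin (0.09), Gm29438 (0.09) and A730036I17Rik (0.10). For Tnfrsf11a they were Kbtbd7 (0.04), Ppp2r1b (0.05) and Alcam (0.06), and for Tnfrsf11b Celsr3 (0.09), Ptgir (0.09) and Nrk (0.12). For Csf1 they were Cdc42ep3 (0.01), Trmt61a (0.03) and Txndc12 (0.04). Within a difference of 0.25 there were 86 genes for Tnfsf11, 228 for Tnfrsf11a, 62 for Tnfrsf11b and 813 for Csf1, and no member was among the nearest genes of another. With 4 libraries this likeness is a description.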

How the data were processed

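RNA was sequenced from poly-A libraries of hip and knee articular cartilage. The extraction note of the labels names osteoblasts, and the tissue labels were followed. The authors deposited raw read counts per Ensembl gene. The aligner was STAR, to GRCm39 by the methods of the paper and to mm10 by the submitters' processing notes. Hip counts carry HTSeq summary lines, with 25.8% and 24.6% of listed reads in the control and TMX libraries, and these were left out. The counting program of the knee is not given in the sources used here.

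Identifiers were matched to GENCODE M39 (91.8% of hip and 92.6% of knee identifiers). Counts were scaled by TMM within each pair (edgeR 4.0.16, R 4.3.3). DESeq2 1.42.0 size factors, library size, 1 added in place of 0.5, totals without muscle, erythroid and mitochondrial genes, other filters (at least 10 counts over the pair in the main rule) and removal of the exon length and GC trend (20 bins, 2 rounds) were alternatives. With 1 library per condition no test was made, and the paired DESeq2 analysis of the study was not repeated. Intervals are exact (Poisson, Clopper-Pearson or conditional) at 95%, from scipy 1.17.1 in Python 3.11.15. The calling step was tested on simulated counts with Poisson error only, which says nothing of variation between mice or in tissue content.

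The members, the 7 pathway, 3 family and 15 cell type lists and the tests were chosen with earlier results of these data known. Named genes are the members, Cbfb, Csf1r, Il34, Traf6, Nfatc1, Lgr4 and Tnfsf10, at most 3 genes per list and pair with the largest log2 ratio whose higher library held 50 counts or more, the leading markers of cell types, and the 3 nearest patterns per member. A gene named for 1 joint is given in the other where the text compares them. Acan, Acp5, Alas2, Atp6v0d2, Chad, Col9a1, Col11a2, Dcstamp, Hapln1, Hba-a2, Matn1, Ocstamp, Sost, Csf2 and Csf3 were named after their values were seen.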

Additional observations from a re-analysis of the deposited data

Results flagged for a closer look

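Tnfsf11 pointed in opposite directions in the joints, which is what drew attention to it. Its log2 ratio was 0.99 in the hip pair, from 9 and 16 counts, and -0.93 in the knee pair, from 208 and 138 counts. The hip interval of -0.24 to 2.39 included 0, and the difference between the joints was not tested.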

How the results depend on the processing

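No paired analysis was made, and hip and knee were not fitted together. Of 104 alternative values, 75 kept their direction and stayed within the limits set for a like value. For counts of genes the limit was 1.5 times, and for other values it was the counting interval of the main value. That interval was wide for Tnfsf11 in the hip (-0.24 to 2.39). No log2 ratio of a member changed direction. Cbfb, whose direction in the knee turned with the scaling, was not among these values. Tnfrsf11a in the knee was 0.45 under library size scaling in place of 0.27. The knee pathway genes were 25 higher and 29 lower without the length and GC trend, and the hip genes past 2-fold were 2758 higher and 3079 lower, which turned both balances. With the length and GC trend removed, 3 ratios came within counting error, namely Tnfrsf11a in the hip (0.61) and knee (0.18) and Csf1 in the hip (-0.023). In the knee, Csf1 was -0.12 under library size scaling, -0.13 with muscle, erythroid and mitochondrial genes left out of the totals, and -0.43 with the trend removed, and Tnfrsf11b was 1.19 and 1.18 under the first 2 of these. Left out of the totals, those genes raised levels in CPM in the knee control to 6.99 (Tnfsf11), 7.83 (Tnfrsf11a), 20.8 (Tnfrsf11b) and 58.9 (Csf1), in the knee TMX library to 10.7, 47.2 and 54.0 for the last 3, in the hip control to 4.53 (Tnfrsf11b) and 24.0 (Csf1), and in the hip TMX library to 2.18 (Tnfrsf11a), 6.59 (Tnfrsf11b) and 19.1 (Csf1), by construction. Per kilobase the RANKL to OPG ratio was 0.451 in the knee control and 0.118 in the knee TMX library. When both libraries of a pair had to hold 10 counts, which leaves fewer genes tested, 1435 hip genes were lower by 2-fold in place of 3234, and in the knee 1202 were higher in place of 1902 and 811 lower in place of 1440. A limit of 1.5-fold gave 3458 and 2891 in the knee. Of the pathway genes, 17 were lower in the hip with the trend removed, in place of 27, and 14 in the knee under library size scaling, in place of 24. The cause was not tested for the other values. Among the members depth limits Tnfsf11 in the hip most, with 9 and 16 counts.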

Other observations

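The wider TNF family was looked at beside the members. Its splits into higher and lower genes were not tested against the shares over all genes given above. Of 18 TNF superfamily ligands, 12 had at least 10 counts in the hip pair, of which 3 were higher and 7 lower beyond counting error (median log2 ratio -0.83). In the knee 14 had at least 10 counts, with 3 higher and 6 lower (median -0.28). Per kilobase, Tnfsf11 ranked 12 of 18 ligands in the hip control, 8 in the hip TMX library, 6 in the knee control and 7 in the knee TMX library. Ltb, the lymphotoxin β chain of lymphoid cells, led the knee ligands at 49.3 and 34.03 CPM per kilobase. In the knee Tnfsf14 (LIGHT) and Eda (ectodysplasin) each had a log2 ratio of 0.90, opposite in direction to Tnfsf11. In the hip, Tnfsf12 (TWEAK) was lower by a log2 ratio of -1.57, from 270 to 79 counts.

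Of 24 TNF receptors, 9 were higher and 9 lower in the knee, and of the 23 with at least 10 counts in the hip, 11 were higher and 8 lower. Tnfrsf11b ranked 9 of 24 per kilobase in the knee control and 6 in the knee TMX library. The largest knee differences were in Tnfrsf9 (4-1BB, 186 and 58 counts, log2 ratio -2.01) and Tnfrsf12a (the TWEAK receptor, 903 and 360 counts, -1.66), both opposite to Tnfrsf11b. In the hip, Tnfrsf4 (OX40) had 1 count in the control and 84 in the TMX library, a log2 ratio of 6.01 with a counting interval of 4.07 to 11.91. In the knee it had 91 and 77 counts.

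Among the colony-stimulating factors, Csf3r, the G-CSF receptor of neutrophils, was higher in both TMX libraries (1.81 and 0.91), as was Csf2ra, a GM-CSF receptor chain (1.17 and 0.82). The paper lists Csf3r among its most downregulated hip genes, opposite to its 176 and 539 hip counts here, and the reason was not tested. In the knee 4 of 6 genes with at least 10 counts were higher and 1, Csf1, was lower. In the hip 3 were higher and 3 lower. Csf2 and Csf3 had at most 5 counts in any library.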
